A study of Homo sapiens with 16 samples.

Results

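The libraries described here are the 4 Jurkat libraries in which USP7 was knocked down, 2 transduced with USP7 shRNA-4057 and 2 with USP7 shRNA-4058, out of 16 RNA-seq libraries in the series. They were chosen by sample title alone and not by any expression value. Jurkat, an established human cell line with active TAL1, comes from T-ALL, an acute leukemia of immature T-lineage cells. Cells received lentivirus that carried one of the short hairpin RNAs, which target different exons of USP7, and were kept by sorting for GFP or by puromycin, so each group was a selected bulk culture and not a clone. The other Jurkat libraries were 2 of untransduced wild-type cells and 2 of cells with a scrambled control, which the labels call a scrambled siRNA, and the same 4 groups, of 2 libraries each, were made in HSB-2, another T-ALL line. The labels do not say whether the replicates were separate transductions, so p-values measure only the spread between these libraries.

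USP7 encodes a deubiquitylating enzyme, which removes ubiquitin from other proteins and can thereby change their stability or activity. In T-ALL it is studied beside the E proteins (TCF3, also called E2A, and TCF12, also called HEB), basic helix-loop-helix factors that drive thymocyte genes such as RAG1, RAG2 and PTCRA, and beside TAL1, an oncogenic factor of the same family that pairs with them. A short hairpin RNA lowers its target through RNA interference and can also lower other transcripts that its seed matches. A difference between the 2 hairpins can therefore hold the effect of a deeper loss of USP7, the effects of either hairpin on other transcripts, and differences between the cultures, and these 3 cannot be told apart in 1 line.

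Total counts were between 90.4 and 110 M (mega) in the 4 hairpin libraries, and a floor of 3 counts corresponded to between 0.0237 and 0.0291 CPM (counts per mega counts of the library, scaled by TMM, the trimmed mean of M values), which covers counting error only. The T-cell identity of the line was present in each library: CD3E lay between 445 and 480 CPM, whereas 4 of 11 epithelial and stromal markers, among them COL1A2, had no count in any of the 4. The summed level of that list, 613 to 721 CPM, was mostly VIM, which lymphoid cells also express, at 603 to 709 CPM, with COL1A1 next. All 12 myeloid markers were under 1 CPM, with summed levels of 0.971 to 1.35 CPM.

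USP7 was lower with shRNA-4057 than with shRNA-4058. Its level was 140 and 145 CPM in the shRNA-4057 libraries, 244 and 242 CPM in the shRNA-4058 libraries, 384 and 387 CPM in the scrambled libraries and 396 and 386 CPM in wild-type cells. The libraries of each hairpin overlapped neither those of the other nor the controls, and the shRNA-4058 libraries lay between the other hairpin and the controls. Relative to the scrambled mean, 37.0% of USP7 remained with shRNA-4057 and 63.0% with shRNA-4058. The log2 difference between the hairpins was -0.77 (SE 0.035, adjusted p = 4.54e-14, edgeR quasi-likelihood test with Benjamini-Hochberg adjustment), a 1.70-fold difference. USP7 spans chr16:8985954-9069185 on the minus strand (GRCh37) and is overlapped by the antisense gene USP7-AS1, whose reads cannot be told apart because the strand setting of the counting is not given.

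**Figure D1:**
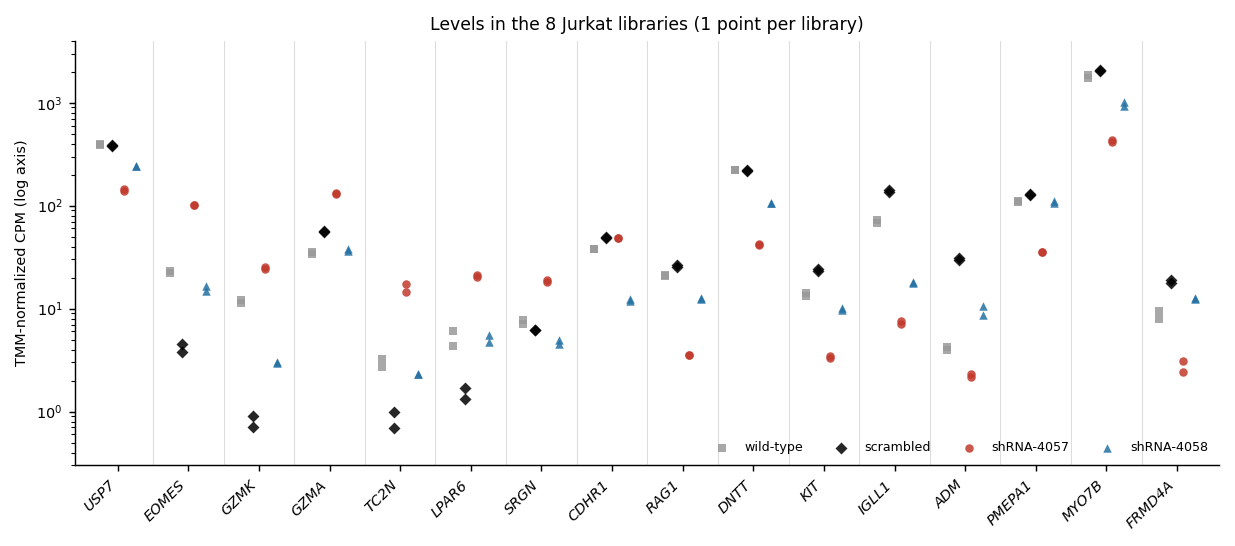
Levels of USP7 and 15 other genes in the 8 Jurkat libraries, in TMM-normalized CPM on a log axis, with 1 point for each library. USP7 lies at 140 and 145 CPM with shRNA-4057 and at 244 and 242 CPM with shRNA-4058, and for EOMES, GZMK and RAG1 the libraries of each hairpin sit close together and apart from those of the other.

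Many genes differed between the hairpins, most of them by little. Of 23063 genes tested, 7817 (33.9%) passed an adjusted p of 0.05, of which 4080 (17.7% of those tested) were higher and 3737 (16.2%) lower with shRNA-4057. The median size among them was 0.34 on the log2 scale, or 1.27-fold, and 2713 differed by less than 1.2-fold. A difference of at least 2-fold was found in 818 genes (3.55%), 514 higher and 304 lower. In 62.7% of tested genes the 2 libraries of each hairpin did not overlap, so a lack of overlap alone says little. The genes that were higher had a median GC content of 54.0%, those that were lower 44.2%, and all tested genes 48.5%. Which direction held more calls depended on the fit. Higher genes were 52.2% of the calls, but 47.4% with an offset for GC and length (3948 higher and 4377 lower), 49.1% by DESeq2, 49.2% with its size factors in edgeR, 48.9% in a fit of the Jurkat libraries only and 49.4% in one of the 4 hairpin libraries only.

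Genes of cytotoxic lymphocytes stood among those that rose most with shRNA-4057. GZMK, which encodes a granzyme, a serine protease of cytotoxic granules, was at 24.2 and 25.1 CPM with shRNA-4057 and at 2.96 and 3.06 CPM with shRNA-4058. Scrambled libraries had 0.911 and 0.709 CPM, and wild-type cells 12.1 and 11.2 CPM. GZMK was thus highest in the shRNA-4057 libraries, intermediate in wild-type cells and lowest in the scrambled libraries, with shRNA-4058 between the controls, and the hairpins differed by 8.19-fold (log2 difference 3.03, SE 0.11, adjusted p = 7.82e-16). EOMES, the T-box factor of memory and cytotoxic T cells, was at 101 and 102 CPM against 16.4 and 14.9 CPM, with 3.82 and 4.55 CPM in scrambled and 23.3 and 22.3 CPM in wild-type cells. Its difference between the hairpins was 6.50-fold (log2 2.70, SE 0.070, adjusted p = 4.98e-18), and each hairpin raised it above the scrambled level (log2 difference 4.60 and 1.90). GZMA was at 130 and 133 CPM with shRNA-4057 but at 36.0 and 38.2 CPM with shRNA-4058, on either side of the 55.6 and 57.1 CPM of the scrambled libraries. In such bulk libraries, more cells that express a gene and more RNA in each cell cannot be told apart.

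Of the 16 cytotoxic effector genes tested, 10 were higher with shRNA-4057 and 0 lower by edgeR (0 by DESeq2, and 1 lower at an unadjusted p of 0.05), and the median difference was 1.11 on the log2 scale against 0.01 over all tested genes. Of all tested genes 17.7% were higher and 16.2% lower, the shares given beside each Jurkat list count between the hairpins. Protein-coding genes were 61.4% of those tested, but 82.5% of those higher and 87.7% of those lower. Under a minimum of 10 counts in every hairpin library, 3820 of 16317 genes were higher and 3711 lower, which are larger shares. A list share only somewhat above that of all tested genes therefore says little about the list. NKG7, a granule membrane protein, lay at 26.1 and 24.3 CPM against 11.8 and 11.4 CPM, and perforin, PRF1, at 21.0 and 20.4 CPM against 9.59 and 9.70 CPM. Both stood above the scrambled level with either hairpin. Over the list, 8 were higher and 2 lower than scrambled with shRNA-4057 (22.7% and 27.3% of all genes), with a median of 1.25. With shRNA-4058, 5 were higher and 5 lower (19.7% and 26.7% of all genes), with a median of 0.02. In scrambled cells 3 were higher and 5 lower than in wild-type cells (14.8% and 11% of all genes), with a median of -0.37. The ligand of the death receptor Fas, FASLG, had 140 and 146 counts with shRNA-4057 and 3 and 0 counts with shRNA-4058, and GZMH, GZMM and KLRD1 also passed. The log2 differences of GNLY (-0.80, SE 0.69), GZMB (-0.03) and KLRG1 (-0.46) did not pass the test. Under a minimum of 10 counts in every hairpin library of both lines, 7 members were tested and 6 were higher, and in fits of the Jurkat libraries only or of the 4 hairpin libraries only 1 member was lower.

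The remaining genes among the 15 highest differences had several roles. TC2N was at 14.5 and 17.3 CPM with shRNA-4057 and at 2.32 and 2.30 CPM with shRNA-4058 (log2 difference 2.78, SE 0.12). LPAR6, a receptor for lysophosphatidic acid, was at 20.2 and 21.0 against 5.60 and 4.76 CPM, and SRGN, the proteoglycan core of secretory granules, at 18.2 and 18.8 against 4.98 and 4.56 CPM. These 3 genes did not overlap between the hairpins, and TC2N and LPAR6 were raised above scrambled by both. Wild-type cells had 3.22 and 2.69 CPM of TC2N, above the shRNA-4058 libraries, and 6.05 and 4.32 CPM of LPAR6, which overlapped them. The annotations of both genes overlap those of other tested genes, for LPAR6 on the opposite strand, so part of their reads could belong to those genes. The calcium channel CACNA1I, the DNA glycosylase NEIL1, the ERK phosphatase DUSP6, the lamellipodial adaptor RAPH1, ARHGAP29, SLC26A11, GZMM and GCHFR rose by log2 differences of 1.64 to 1.87.

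The levels of CDHR1, a cadherin of photoreceptors, were of another kind. It was at 48.2 and 48.6 CPM with shRNA-4057, at 11.8 and 12.5 CPM with shRNA-4058 and at 48.1 and 50.1 CPM in scrambled cells. The shRNA-4057 libraries thus lay at the scrambled level, and the 3.98-fold difference between the hairpins (adjusted p = 1.01e-16) was a fall with shRNA-4058 alone (log2 difference from scrambled -2.02, against -0.02 with shRNA-4057, adjusted p = 0.787). GCHFR was also further from scrambled with shRNA-4058 (-1.14) than with shRNA-4057 (0.51).

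RAG1, DNTT and KIT were among the 15 largest falls. RAG1, the recombinase that cuts antigen receptor genes, was at 3.58 and 3.53 CPM with shRNA-4057, at 12.4 and 12.6 CPM with shRNA-4058 and at 26.2 and 25.5 CPM in scrambled cells. DNTT, the polymerase that adds bases at receptor gene joints, was at 41.7 and 42.7, 106 and 106, and 222 and 219 CPM in the same order. KIT, the receptor of stem cell factor, was at 3.34 and 3.43, 10.2 and 9.77, and 24.2 and 23.0 CPM. In all 3 genes the levels fell from scrambled through shRNA-4058 to shRNA-4057 with no overlap, and the hairpins differed by 3.52-fold, 2.52-fold and 2.95-fold (adjusted p = 3.35e-12, 6.72e-13 and 5.72e-14).

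IGLL1, a surrogate light chain, was at 7.57 and 7.10 CPM with shRNA-4057 and at 17.6 and 18.2 CPM with shRNA-4058, far below the 136 and 141 CPM of the scrambled libraries. Adrenomedullin, ADM, fell to 2.14 and 2.32 CPM against 8.75 and 10.5 CPM with shRNA-4058 and 29.5 and 31.0 CPM in scrambled cells, but wild-type cells had 3.92 and 4.26 CPM, so that the scrambled libraries stood farthest apart. The unconventional myosin MYO7B went from 928 and 1010 CPM with shRNA-4058 to 432 and 412 CPM with shRNA-4057.

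In other genes the fall came with shRNA-4057 and little or none came with shRNA-4058. PMEPA1, an inhibitor of TGF-beta signalling, was at 35.4 and 35.5 CPM with shRNA-4057 against 107 and 111 CPM with shRNA-4058 and 126 and 130 CPM in scrambled cells. S1PR3, a receptor for sphingosine 1-phosphate, was at 19.5 and 19.9 CPM against 46.4 and 45.3 CPM, and the scrambled libraries, at 46.4 and 43.8 CPM, overlapped those of shRNA-4058. BCAT1, which starts the breakdown of branched-chain amino acids, lay below scrambled with shRNA-4057 (log2 difference -0.60) and above it with shRNA-4058 (0.60). FRMD4A had the largest fall between the hairpins among the named genes with at least 5 CPM (log2 difference -2.18, SE 0.14, adjusted p = 1.85e-11), with 2.44 and 3.11 CPM against 12.5 and 12.7 CPM. ASS1, DAAM2, SCN3A, ANTXR1 and HSPA1B completed the 15, with log2 differences of -1.80 to -1.24. HSPA1B has a near-identical neighbouring copy, so its share of reads is uncertain.

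The genes listed here as E-protein targets were lower with shRNA-4057 in 5 of 7 and higher in 0 of 7 by edgeR (0 at an unadjusted p of 0.05 and 0 by DESeq2), with a median log2 difference of -0.52. The study's text names RAG1 and PTCRA as such targets, and RAG2 and CD69 as genes near shared binding peaks. It defined its own target set from knock-down data, and that set was not used here. These 7 were picked with results on these libraries known, so the list is not independent evidence of its direction. With the GC and length offset, 1 of them was higher. Of all tested genes 16.2% were lower and 17.7% higher. RAG2, which forms the recombinase with RAG1, was at 4.59 and 5.11 CPM with shRNA-4057 and at 8.86 and 9.28 CPM with shRNA-4058, and the latter did not differ from scrambled by the test (log2 difference -0.16, adjusted p = 0.262). PTCRA, the surrogate alpha chain of the pre-T-cell receptor, was at 0.299 and 0.243 CPM against 0.741 and 0.941 CPM. Of the lipid-presenting CD1 genes, CD1E was at 163 and 166 against 233 and 238 CPM and CD1A at 51.6 and 50.8 against 64.5 and 64.5 CPM. CD1B (log2 difference -0.19, adjusted p = 0.0573) and CD69 (0.03, adjusted p = 0.814) did not pass, although both lay well below scrambled with each hairpin (log2 difference -1.06 and -0.87 for CD1B, -1.43 and -1.46 for CD69). The annotations of RAG1 and RAG2 overlap on opposite strands, so reads of one could be counted for the other.

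Of the E-protein genes themselves, TCF3 lay at 351 and 321 CPM with shRNA-4057 and at 327 and 358 CPM with shRNA-4058, which overlapped (log2 difference -0.03, adjusted p = 0.729). TCF12 was slightly lower (log2 difference -0.11, adjusted p = 0.00744), and TCF4 fell by 0.40 on the log2 scale. TAL1 was at 340 and 338 CPM with shRNA-4057 and at 283 and 282 CPM with shRNA-4058, and the latter was close to scrambled, at 287 and 293 CPM. The inhibitory ID proteins, which bind E proteins and keep them from DNA, were higher with shRNA-4057. ID2 was at 5.98 and 6.27 CPM against 2.46 and 2.07 CPM (log2 difference 1.43, adjusted p = 2.80e-11), ID1 differed by 0.69 and ID3 by 0.35.

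Among the partners of TAL1, GATA3 (0.44) and LDB1 (0.41) were higher and RUNX1 (-0.14), MYB (-0.42) and LMO1 (-0.75) lower by log2 difference. LMO2 passed the test from very few reads, with 40 and 45 counts against 4 and 2 counts. SIN3A, TRIM27 and LYL1 did not pass. Over the whole list of E proteins, ID proteins and TAL1 partners, 8 of 18 were higher and 6 lower (17.7% and 16.2% of all genes were), with a median of 0.09.

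Of 12 tested genes that TAL1 is known to activate, 8 were lower and 2 higher with shRNA-4057 (median -0.25), where 16.2% and 17.7% of all genes were. ALDH1A2, which makes retinoic acid, was at 187 and 186 CPM with shRNA-4057, at 265 and 268 CPM with shRNA-4058 and at 870 and 853 CPM in scrambled cells. Its levels were ordered as those of USP7 were. CDK6 was higher than scrambled with each hairpin, by a log2 difference of 0.19 with shRNA-4057 and 0.55 with shRNA-4058.

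Genes of the T-cell receptor complex and its proximal signalling were mostly higher with shRNA-4057, with 19 of 28 higher, 4 lower and a median of 0.35. Of all tested genes 17.7% were higher and 16.2% lower. The adaptor LAT was at 12.1 and 13.6 CPM against 6.44 and 6.62 CPM, and the co-receptor CD28 at 256 and 266 against 163 and 159 CPM. In both genes the shRNA-4058 libraries differed little from scrambled, by log2 differences of 0.10 and 0.03, neither of which passed. The 4 that were lower were SLA, TRBC2, CD3G and CD3D (log2 difference -0.47 to -0.11), and CD3E and the kinase LCK did not pass.

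Among 31 surface and differentiation markers of T-lineage cells, 12 were higher and 8 lower (4 of 24 under the minimum of 10 counts), and the median was 0.03. For each list of this paragraph, the shares over all tested genes were 17.7% higher and 16.2% lower. Those higher included the chemokine receptor CXCR3, at 9.39 and 9.49 against 3.41 and 3.41 CPM, and the integrin ITGB7 (log2 difference 1.17). Those lower included KIT, DNTT, the interleukin 7 receptor IL7R (2.29 and 2.68 against 5.13 and 5.17 CPM) and CD34, which was under 1 CPM throughout (0.141 and 0.243 against 0.655 and 0.856 CPM). Of the T-lineage transcription factors, 14 of 31 were higher, among them EOMES, HHEX, NFATC2, IKZF3 and FOXO1, and 3 lower (5 by DESeq2). Of 18 NOTCH1 and MYC pathway genes 12 were lower and 3 higher, with MYC at 144 and 141 against 211 and 228 CPM and NOTCH3 at 51.0 and 49.0 against 79.6 and 84.5 CPM. MYC was near the 130 and 135 CPM of the scrambled libraries with shRNA-4057 and above them with shRNA-4058.

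**Figure D2:**
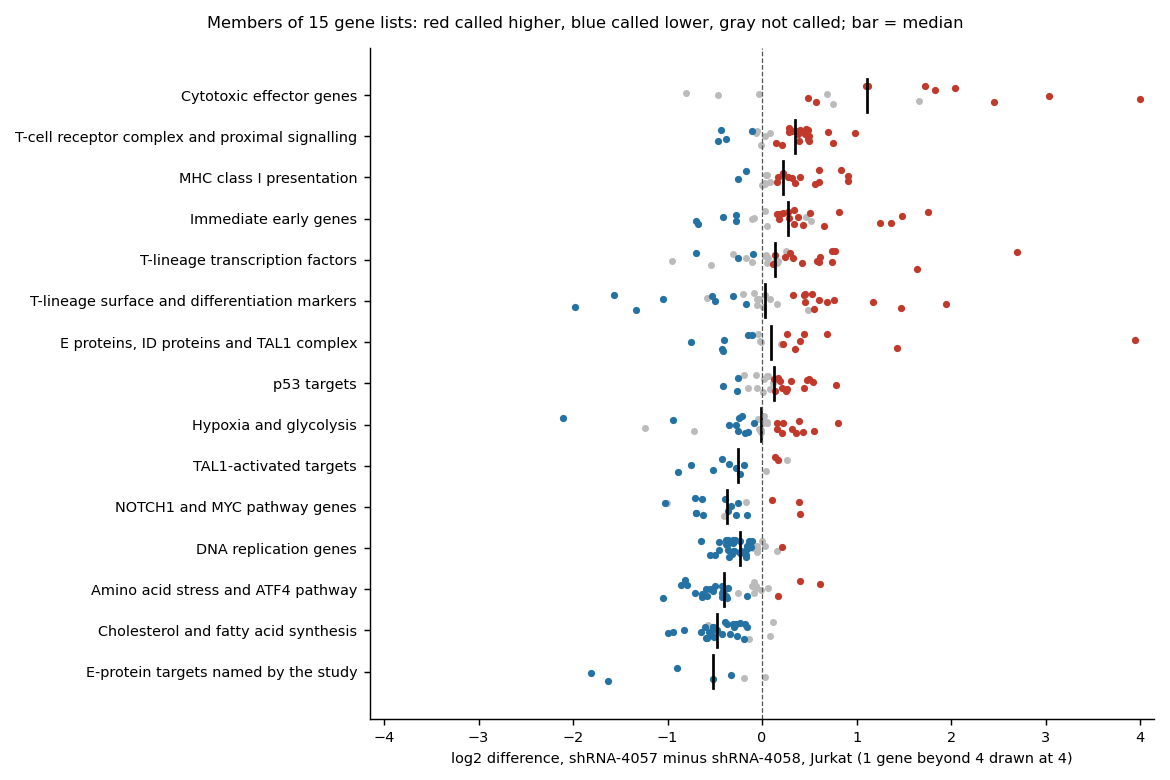
The log2 difference between shRNA-4057 and shRNA-4058 in Jurkat for each tested member of 15 gene lists, with 1 point for each gene, red where the gene was higher at an adjusted p under 0.05, blue where it was lower and gray where it did not pass, and a bar at the median. The medians run from -0.52 for the E-protein targets and -0.48 for cholesterol and fatty acid synthesis to 1.11 for cytotoxic effector genes, and FASLG is drawn at the edge of the axis. In the list labelled as E-protein targets, RAG1 and PTCRA are the genes that the study's text names as such.

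Genes of cholesterol and fatty acid synthesis were lower with shRNA-4057 almost throughout. These genes are switched on together by the sterol-regulated factors SREBF1 and SREBF2 when sterol in the endoplasmic reticulum is low. Of 31 tested, 27 were lower and 0 higher by edgeR (0 at an unadjusted p of 0.05 and 0 by DESeq2), and the median difference was -0.48. Of all tested genes 16.2% were lower and 17.7% higher. MSMO1, a sterol demethylase, was at 28.6 and 30.8 CPM with shRNA-4057 and at 65.2 and 52.8 CPM with shRNA-4058. HMGCS1, an early enzyme of the sterol pathway, was at 130 and 137 against 263 and 250 CPM, and INSIG1, which holds the SREBF factors in the endoplasmic reticulum, at 206 and 206 against 371 and 356 CPM, with scrambled at 678 and 663 CPM. In each of the 3 genes the libraries of the hairpins were well apart, by 1.99-fold, 1.92-fold and 1.77-fold. SQLE, DHCR7, FDFT1, FASN and SCD were also lower, by log2 differences between -0.64 and -0.40. The 4 genes that did not pass were CYP51A1, which was under 1 CPM, PMVK, TM7SF2 and SREBF1 (0.08, adjusted p = 0.218), whereas SREBF2 was lower, at 222 and 214 against 277 and 285 CPM. Set against scrambled, 30 of the 31 were lower with shRNA-4057 (27.3% of all genes were) and 29 with shRNA-4058 (26.7%), with medians of -0.90 and -0.52. In scrambled cells 15 were themselves higher and 4 lower than in wild-type cells (14.8% and 11% of all genes), so these falls depend on the control used.

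Genes of the amino acid stress response, many of which ATF4 activates, were likewise lower with shRNA-4057, in 21 of 32 (16.2% of all genes were) with 3 higher (17.7%) and a median of -0.40. Their levels relative to scrambled were of another kind. PSAT1, of serine synthesis, was at 60.7 and 63.0 CPM with shRNA-4057, at 129 and 127 CPM with shRNA-4058 and at 94.0 and 95.7 CPM in scrambled cells. Asparagine synthetase, ASNS, was at 14.0 and 16.2, 25.4 and 24.0, and 20.7 and 18.4 CPM in the same order. For both genes the scrambled libraries lay between the hairpins, so that the difference was made of a fall with one hairpin and a rise with the other. The amino acid transporter SLC7A5 was at 240 and 244 CPM with shRNA-4057, close to the 246 and 251 CPM of scrambled, and at 421 and 435 CPM with shRNA-4058. Over the list, 7 members were higher and 20 lower than scrambled with shRNA-4057, where 50% of all genes passed (22.7% higher), and 17 were higher and 7 lower with shRNA-4058, where 46.5% passed (19.7% higher). The transcript of ATF4 itself did not differ between the hairpins by the test (log2 difference -0.01, adjusted p = 0.902), and DDIT3 was higher with shRNA-4057, by 0.61.

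DNA replication genes were lower by small amounts in most members. Of 38 tested, 30 were lower and 1, POLE, was higher, with a median of -0.23 and no member at 2-fold. For these and the mitotic genes below, the shares over all tested genes were 16.2% lower and 17.7% higher. The licensing factor CDC6 was at 63.0 and 60.7 CPM with shRNA-4057 against 95.3 and 98.0 CPM with shRNA-4058 and 97.4 and 99.2 CPM in scrambled cells. The helicase subunit MCM6 was at 211 and 215 against 313 and 311 CPM, and MCM4 at 291 and 294 against 400 and 402 CPM. In CDC6 and MCM6 the shRNA-4058 libraries did not pass against scrambled (log2 difference -0.02 and 0.07, adjusted p = 0.621 and 0.0642). These genes were also higher in scrambled than in wild-type cells in 30 of 38 and lower in 1, where 25.9% of all genes passed (14.8% higher and 11% lower). Of 30 mitotic genes 11 were higher, among them MKI67 (1110 and 1090 against 895 and 929 CPM), and 4 lower. With the GC and length offset 17 were higher and 2 lower, and without shRNA-4057 replicate 1 or without shRNA-4058 replicate 1 the number lower was 1.

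**Figure D3:**
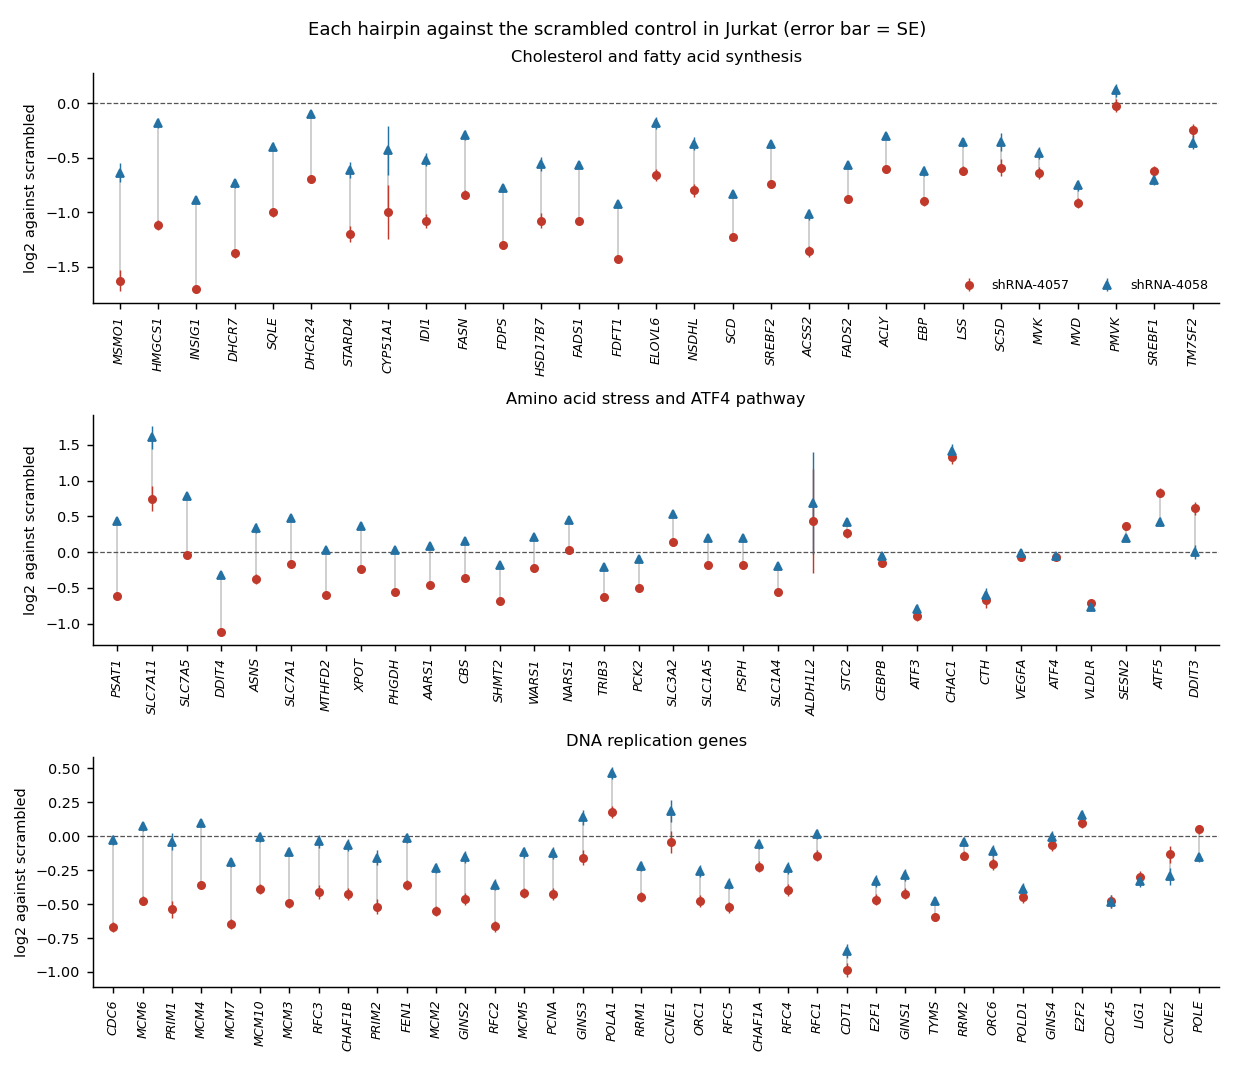
Log2 difference of each hairpin from the scrambled control in Jurkat for members of 3 lists (29 of the 31 in the cholesterol and fatty acid list), ordered by the difference between the hairpins, with circles for shRNA-4057, triangles for shRNA-4058 and bars for the standard error. In the cholesterol and fatty acid list both hairpins lie below 0 for most genes, shRNA-4057 lower, and in the amino acid stress list many shRNA-4058 values lie above 0 and shRNA-4057 values below it, as for PSAT1 (-0.62 and 0.43).

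The promoters of one gene from each of 4 lists are shown, chosen as the called member with the largest difference between the hairpins whose 250 bases before the RefSeq start (GRCh38.p14) hold the motif usually ascribed to the regulators of that list. Both strands were searched, capitals mark the match, and each is read 5′ to 3′ along the gene's strand. The coordinates are those of the whole printed stretch, which holds the match and its flanks. RAG1 has an E-box (CANNTG), the site of E proteins and TAL1, within chr11:36510198-36510283 on the plus strand. SREBF2 has a sterol regulatory element (TCACNCCAC) within chr22:41832932-41833020 on the plus strand. ASNS has a C/EBP-ATF response element (TGATGNAA) within chr7:97872429-97872516 on the minus strand. MCM6 has 2 E2F sites (TTTGGCGC) within chr2:135876486-135876635 on the minus strand.
RAG1: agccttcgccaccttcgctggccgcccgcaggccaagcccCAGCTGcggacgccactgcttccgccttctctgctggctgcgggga
SREBF2: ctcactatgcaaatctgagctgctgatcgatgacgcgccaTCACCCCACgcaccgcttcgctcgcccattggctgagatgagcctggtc
ASNS: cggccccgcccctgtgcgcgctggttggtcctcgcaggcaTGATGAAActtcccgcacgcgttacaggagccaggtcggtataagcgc
MCM6: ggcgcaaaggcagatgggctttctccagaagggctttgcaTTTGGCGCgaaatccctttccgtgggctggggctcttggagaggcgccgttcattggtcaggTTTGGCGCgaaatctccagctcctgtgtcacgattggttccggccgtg

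An E-box was found for 4 of the 5 E-protein targets with a RefSeq promoter and for 66.7% of 27305 genes, so its presence does not set them apart. The sterol element was found for 1 of 25 cholesterol and fatty acid genes (1.09% of all genes), and a CCAAT box, bound by the factor NF-Y, which works with SREBF2, for 19 of the 25 (37.0% of all genes). The response element of ATF4 was found for 5 of 27 amino acid stress genes (3.89% of all), and the E2F site for 5 of 34 DNA replication genes (0.681% of all). A match is a description of letters and not a measured site.

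Genes of antigen presentation by MHC class I were higher with shRNA-4057 in 13 of 21 and lower in 2, with a median of 0.22. For each list of this paragraph, the shares over all tested genes between the hairpins were 17.7% higher and 16.2% lower. Class I heavy chain genes are alike in sequence, so the split of reads among them is uncertain. HLA-B was at 251 and 245 CPM with shRNA-4057, at 127 and 137 CPM with shRNA-4058 and at 198 and 201 CPM in scrambled cells. B2M, the light chain, was at 450 and 465, 302 and 299, and 465 and 431 CPM in the same order. B2M with shRNA-4057 overlapped the scrambled libraries, and with shRNA-4058 it lay below them. Their transactivator NLRC5 differed by 0.91 on the log2 scale. Against scrambled, 9 members were higher and 8 lower with shRNA-4057, and 4 were higher and 14 lower with shRNA-4058, with medians of 0.08 and -0.33. Of all tested genes, 22.7% were higher and 27.3% lower with shRNA-4057, and 19.7% and 26.7% with shRNA-4058. Interferon response genes, by contrast, were higher in 8 and lower in 8 of 30 (median 0.01; without shRNA-4058 replicate 2, 4 were lower, and without shRNA-4057 replicate 1, 5), and genes of RNA interference and double-stranded RNA sensing higher in 8 and lower in 7 of 22 (4 lower without shRNA-4058 replicate 1), with DICER1 at 108 and 110 against 89.4 and 84.3 CPM.

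Immediate early genes, which answer growth factor and antigen receptor signals within minutes, were higher in 17 and lower in 5 of 28, with a median of 0.27. No other fit, scaling or filter gave more than 16 higher. Of all tested genes 17.7% were higher and 16.2% lower. JUN was at 35.1 and 32.9 CPM with shRNA-4057 against 14.8 and 13.7 CPM, with 18.3 and 16.4 CPM in scrambled cells, and FOS at 9.96 and 8.37 against 5.02 and 5.41 CPM. DUSP6, which switches off ERK, was at 5.32 and 5.40 against 1.63 and 1.54 CPM. For JUN and DUSP6 the scrambled level lay between those of the hairpins. The scrambled level was itself above wild-type in 21 of the 28 genes and below it in 0, with a median of 0.35. Of all tested genes 14.8% were higher and 11% lower in scrambled than in wild-type cells. EGR1, EGR3 and IER3 were lower, by log2 differences of -0.41, -0.70 and -0.68.

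Of 27 partners and substrates of USP7, 11 were lower, among them DNMT1 (329 and 316 against 443 and 471 CPM), CHEK1 and GMPS, and 5 were higher (3 in a fit of the Jurkat libraries only). For each list of this paragraph, the shares over all tested genes between the hairpins were 16.2% lower and 17.7% higher. In the family of ubiquitin-specific proteases, USP7 was 1 of 13 lower genes among 46 and 8 were higher (5 without shRNA-4057 replicate 1 or without shRNA-4058 replicate 1, and 4 in a fit of the 4 hairpin libraries only), and 19 were lower with the GC and length offset, with USP13 at 43.8 and 45.2 against 73.8 and 69.0 CPM. Of 27 p53 targets 13 were higher, TP53INP1 the most (0.78), and 3 lower, including CDKN1A and MDM2. Of 34 Polycomb genes 18 were higher, led by PHF1 (0.81), and 6 lower, and without shRNA-4057 replicate 1 the number higher was 11. Hypoxia and glycolysis genes split into 10 higher and 10 lower of 35, with a median of -0.01. Against scrambled, 32 of them were lower with shRNA-4057 (27.3% of all genes were) and 31 with shRNA-4058 (26.7%), with medians of -0.54 and -0.58, but 31 were also higher in scrambled than in wild-type cells (14.8% of all genes were), with a median of 0.50. Of 17 BCL2 family genes 4 were higher and 5 lower (3 without either shRNA-4057 library and 2 without shRNA-4058 replicate 2), and of 7 C/EBP genes 1 was higher and 3 lower, with CEBPE at 5.75 and 5.12 against 9.12 and 11.0 CPM, far below the 103 and 107 CPM of scrambled cells. Of 8 abundant noncoding RNAs 5 were higher, MALAT1 by 0.33 and NEAT1 by 0.43. The B-cell list was at 33.7 and 32.9 CPM in sum with shRNA-4057 and at 44.1 and 44.6 CPM with shRNA-4058. CD79A had the highest mean level in that list, followed by IGLL1, at 7.57 and 7.10 against 17.6 and 18.2 CPM. Of the tested B-cell, myeloid, erythroid, and epithelial and stromal markers, 1 of 10, 0 of 5, 1 of 5 and 2 of 5 were higher and 1, 1, 0 and 1 lower.

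The same pair of hairpins was compared in HSB-2, which shares no library with the Jurkat comparison. There the hairpins hardly differed in USP7, with 144 and 149 CPM for shRNA-4057 against 162 and 156 CPM for shRNA-4058, 65.5% and 71.0% of the scrambled mean, and the difference was -0.12 on the log2 scale (SE 0.035, adjusted p = 0.0146). The interaction term, the difference in Jurkat minus that in HSB-2, was -0.65 (SE 0.049, adjusted p = 6.76e-10). In HSB-2, 5716 genes (24.8%) passed, 2418 (10.5%) higher and 3298 (14.3%) lower with shRNA-4057. Higher genes were 42.3% of those calls, but 55.3% when libraries were scaled by their totals alone and 53.2% with the GC and length offset, so the balance of directions in HSB-2 depended on the scaling. Of the genes called in Jurkat 38.5% were also called in HSB-2 and of those called in HSB-2 52.7% in Jurkat, which were 3011 genes, 1809 in the same direction and 1202 in the opposite one. Over 12255 genes of at least 1 CPM the differences had a Pearson correlation of 0.13 and a Spearman correlation of 0.12, across genes that are not independent and in libraries scaled jointly. The interaction term passed for 6379 genes (27.7%), 15.6% with a positive and 12.1% with a negative sign. Positive signs were 56.3% of these, but 47.1% under scaling by totals and 45.8% with the GC and length offset.

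Cholesterol and fatty acid synthesis genes went the same way in both lines. In HSB-2, 30 of the 31 genes were lower with shRNA-4057 and 0 higher by edgeR (0 at an unadjusted p of 0.05 and 0 by DESeq2), with a median of -0.53 against 0.00 over all tested genes, and 27 were lower in both lines. INSIG1 was at a mean of 522 against 851 CPM in HSB-2 and DHCR7 at 114 against 191 CPM. The interaction did not pass for INSIG1 (log2 -0.12, adjusted p = 0.0757) or DHCR7 (0.10, adjusted p = 0.232). It passed for 15 of the list, positive in 11 and negative in 4 (15.6% and 12.1% of all genes). Of all tested genes in HSB-2, 14.3% were lower and 10.5% higher with shRNA-4057.

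DNA replication genes went the other way. In HSB-2, 17 of 38 were higher with shRNA-4057 and 0 lower by edgeR (2 lower at an unadjusted p of 0.05 and 2 by DESeq2), where 30 were lower in Jurkat, 12 genes were called in opposite directions, and the interaction was negative and passed for 32. Under each scaling tried, 16 to 29 genes were higher and at most 2 lower in HSB-2, but without HSB-2 shRNA-4058 replicate 2 only 9 were higher and 3 lower. MCM4 differed by -0.46 in Jurkat and by 0.16 in HSB-2. Of all tested genes in HSB-2, 10.5% were higher and 14.3% lower, and 12.1% had a negative interaction that passed. Of the amino acid stress genes, 7 were higher and 4 lower in HSB-2 with a median of 0.03, but 19 were higher with the GC and length offset, and the interaction was negative and passed for 22 of 32, with PSAT1 at -1.05 in Jurkat and 0.26 in HSB-2.

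Immediate early genes had 0 of 28 higher by edgeR (0 at an unadjusted p of 0.05 and 0 by DESeq2) and 19 lower in HSB-2 (median -0.29), and 16 had a positive interaction that passed. JUN was at a mean of 151 with shRNA-4057 against 193 CPM in HSB-2, opposite to Jurkat (interaction 1.60, adjusted p = 2.17e-13). Of all tested genes in HSB-2, 10.5% were higher and 14.3% lower, and 15.6% had a positive interaction that passed. Of the cytotoxic genes 5 were lower in HSB-2 and 0 higher by edgeR (0 at an unadjusted p of 0.05 and 0 by DESeq2), 4 of them higher in Jurkat, and the interaction was positive and passed for 7 of 16. GZMA differed by 1.83 in Jurkat and by 0.04 in HSB-2, where its mean was 100 and 97.2 CPM, while GZMK was nearly absent in HSB-2 and its interaction did not pass (2.00, adjusted p = 0.0595). Of the E-protein targets, RAG2 and PTCRA had no counts in the hairpin libraries of HSB-2, RAG1 had mean levels of 0.0698 and 0.0799 CPM, and CD1B and CD1E were also under 1 CPM. The other 2 could be compared. CD1A differed by -0.33 in Jurkat and by 0.18 in HSB-2, where it did not pass (adjusted p = 0.115), with an interaction of -0.52 (adjusted p = 0.000355). CD69 was lower in HSB-2 (log2 difference -0.27, adjusted p = 0.00108), and its interaction was 0.30 (adjusted p = 0.0119).

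**Figure D4:**
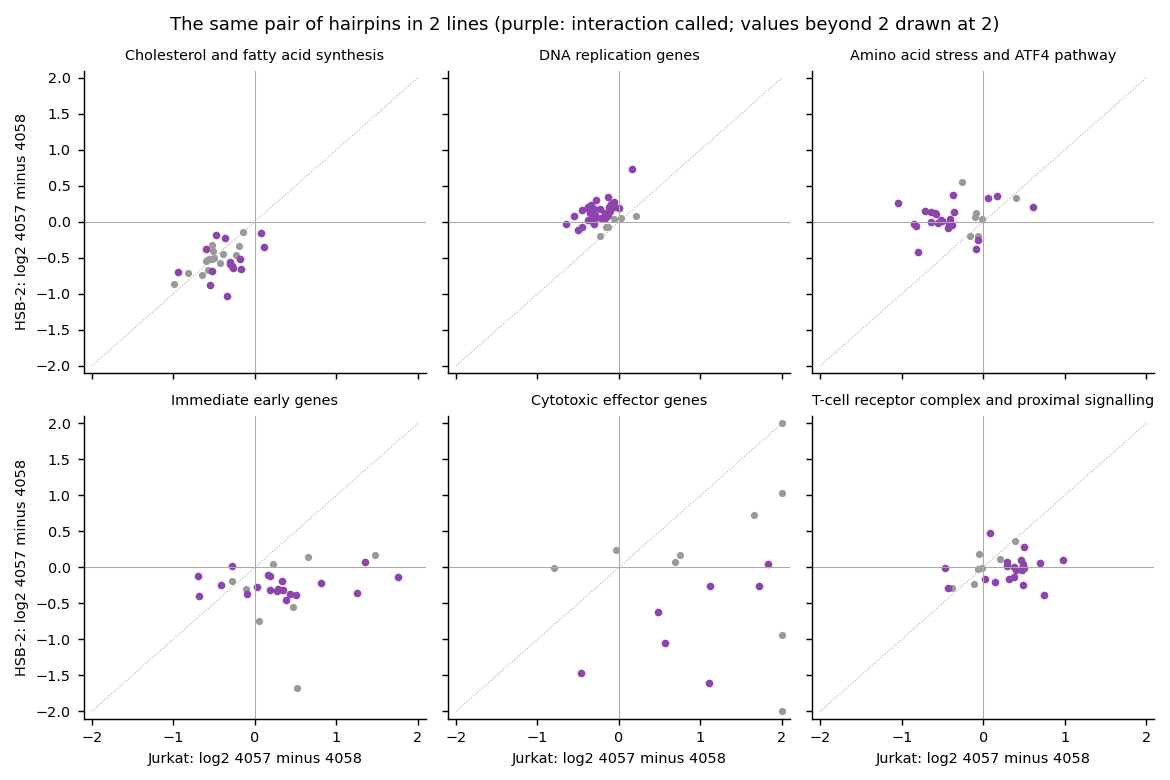
The log2 difference between shRNA-4057 and shRNA-4058 in Jurkat (horizontal) and in HSB-2 (vertical) for the members of 6 lists, with 1 point for each gene, purple where the interaction passed an adjusted p of 0.05 and a dotted line where both lines are equal. Cholesterol and fatty acid genes lie below 0 on both axes for 27 genes called in both lines, DNA replication genes lie to the left and mostly above 0, and several cytotoxic genes drawn at the edges are under 1 CPM in HSB-2.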

How the data were processed

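Per the labels, total RNA was depleted of ribosomal RNA before library preparation. The authors mapped reads with BWA and STAR as listed in the submitters' processing notes, and counted them per gene with HTSeq 0.6.1p1. The values deposited by the authors are unnormalized counts for each gene (GRCh37), and the strand setting is not given in the sources used here. Columns were assigned by sample title. Symbols came from the reference tables, and coordinates, GC content and lengths from GENCODE release 44 on GRCh37, for 96.3% of tested genes. Promoter sequences were those of RefSeq (GRCh38.p14).

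Counts of all 16 libraries in 8 groups were fitted in edgeR 4.0.16 (R 4.3.3) after filterByExpr and TMM scaling, without a replicate block, by the quasi-likelihood F-test with Benjamini-Hochberg adjustment over 23063 of 57820 genes, called under 0.05. The common biological coefficient of variation was 4.20%, with 8 residual degrees of freedom. Hairpin totals were 90.4 to 110 M (mega). The spread behind each p-value was estimated over all 8 groups of 2 libraries in both lines, and genes with few counts also carry counting error. DESeq2 1.42.0 was an alternative. Replicates differed by more than sampling noise.

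Named genes were USP7, all members of the lists of E-protein targets and of E proteins with TAL1 partners, the 15 highest and 15 lowest called differences without overlap in protein-coding genes of at least 5 CPM in the higher group, up to 5 called members with the largest difference of each other list, and the 8 largest called interactions with that level reached in each line. Other members of the 28 lists were named as examples after their values were seen. The members and lists were chosen with earlier results of these data known. Of 642 listed genes 597 were tested, and 22 stood on more than one list. The fitting procedure was run on simulated counts with the same spread in every gene and no factor shared between libraries. That run does not show how the p-values behave where such a factor is present. Some list members are counted but not named, and their own values are not reported here.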

Additional observations from a re-analysis of the deposited data

Results flagged for a closer look

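The interaction term of the edgeR fit (Jurkat minus HSB-2, log2) passed for 6379 genes, and 9 of them, picked as stated next, are described here. USP7 had an interaction of -0.65, with 37.0% of the scrambled level left with shRNA-4057 and 63.0% with shRNA-4058 in Jurkat against 65.5% and 71.0% in HSB-2. The other 8 were those with the largest interactions among genes of at least 5 CPM in the higher hairpin group of each line. TC2N had the largest, 3.20 (2.78 in Jurkat, -0.42 in HSB-2), followed by CDHR1 at 2.70 (1.99 and -0.71), EOMES at 2.70 (2.70 and 0.00, adjusted p = 1 in HSB-2) and LPAR6 at 2.43 (1.99 and -0.44). IL21R, a cytokine receptor, had 2.17 and was at 6.17 and 6.20 against 3.08 and 3.71 CPM in Jurkat but at means of 2.93 against 7.15 CPM in HSB-2. The calcium channel CACNA1H had 2.14, the matrix protein EFEMP2 2.00 and ANXA1, a phospholipid-binding protein, 1.92, and each of these 3 was higher with shRNA-4057 in Jurkat (log2 difference 1.03, 1.40 and 1.07) and lower with it in HSB-2 (-1.12, -0.60 and -0.85). Groups had 2 libraries, too few for a check of single outlying libraries.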

How the results depend on the processing

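The Jurkat count of 7817 genes lay between 7363 and 8325 under the other fits, scalings and filters and between 5899 and 6847 when 1 hairpin library was left out. Requiring at least 2-fold left 818 genes in Jurkat, 548 in HSB-2 and 1079 for the interaction. With the replicate block the counts were 7588, 5463 and 6141, USP7 differed by -0.77, and it moved none of these 3 counts by over 1.5 times. The numbers did not pair the Jurkat hairpin libraries (correlation of deviations -0.46 over 11191 genes). Deviations between replicates also correlated across lines, at 0.54 for Jurkat shRNA-4058 with HSB-2 scrambled and at -0.47 for Jurkat shRNA-4057 with it. The source of these correlations was not tested. A crossed pairing, chosen after seeing the data, gave 7363. Leaving out 1 library gave 3713 to 4478 genes in HSB-2, with 3713 without shRNA-4057 replicate 2, and 4994 to 6152 for the interaction. The USP7 difference stayed between -0.74 and -0.79. Of 2105 values for 164 named genes, 0 changed sign where either fit called the gene, and 2047 stayed on the same side of the threshold. Values that neither fit called could differ in sign and still count among these 2047. A further 48 lost the call and 10 gained it. Most named genes were chosen because they were called with a large difference in the main fit of these libraries, so this agreement is partly built in. The balance of directions over all genes was less stable: higher genes were 47.4% to 52.3% of the Jurkat calls under the other fits, and the balance turned in HSB-2 and for the interaction when libraries were scaled by totals or with the GC and length offset. In Jurkat, 25 to 28 cholesterol genes were lower, with 1 higher without shRNA-4058 replicate 2, and 25 to 32 DNA replication genes were lower. Under a minimum of 10 counts in every hairpin library of both lines only 2 E-protein targets, with 1 lower, could be tested. Without HSB-2 shRNA-4058 replicate 2, 25.1% of HSB-2 calls were higher. Scrambled and wild-type Jurkat libraries differed in 5964 genes (25.9%), so levels relative to scrambled depend on which control is used.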
